A study of Mus musculus with 6 samples.

Results

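The genes described here are Ddx4 and 8 genes that work with it in germ cell RNA biology: Dazl, Mael, Tdrd1, Tdrd5, Tdrd7, Tdrd9, Piwil2 and Piwil4. They were taken by symbol from the deposited expression tables, and all 9 were found among the 31248 genes with a usable value in every library, of 31626 deposited. Ddx4 was chosen by its far lower FPKM after Dot1l deletion in these same libraries, and the others because they belong to its pathway. The member values below are therefore a description of that contrast, with no test on any member, and the question was whether the low Ddx4 level concerned a single gene or many germline genes. All 6 libraries came from common myeloid progenitors of C57Bl/6 mice with loxP-flanked Dot1l, transformed with a retrovirus that carries the oncogene MN1 and GFP and grown in M3234 medium with serum, IL3, IL6 and SCF. The 3 Dot1l-deleted libraries (Dot1l -/-) were from cells transduced with Cre recombinase. The 3 control libraries (Dot1l flox/flox) were from cells transduced with a control, and all cells were sorted at day 7. Cre was not given to cells with intact Dot1l, so an effect of Cre and one of Dot1l loss cannot be told apart. Whether the replicates were separate cultures or mice is not given, so the p-values cover only library-to-library spread, which may be technical.

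DOT1L methylates lysine 79 of histone H3 in the body of transcribed genes. In germ cells, the PIWI proteins PIWIL2 and PIWIL4 bind small RNAs called piRNAs and silence transposons. They meet their partners in cytoplasmic germ granules, or nuage, where DDX4, a DEAD-box RNA helicase also known as VASA, and MAEL are found. Tudor domain (TDRD) proteins hold this assembly together by binding methylated arginines of PIWI proteins. DAZL is an RNA-binding protein that controls the translation of germ cell messages. Promoters of many such genes are rich in CpG and are silenced in body cells by DNA methylation and by a Polycomb complex that contains E2F6, MGA and MAX.

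The promoters of Ddx4 and Dazl, which were both lower after deletion, of Tdrd5, which was higher, and of Mael, which was at 0, are shown for comparison of these elements. Each is the 250 bases before the RefSeq transcription start on build GRCm38.p6, written 5′ to 3′ on the gene's strand. Capitals mark the E2F core TCCCGC, read on either strand (GCGGGA on the other), and the E-box CACGTG bound by MAX partners.
Ddx4, chr13:112652311-112652560, minus strand: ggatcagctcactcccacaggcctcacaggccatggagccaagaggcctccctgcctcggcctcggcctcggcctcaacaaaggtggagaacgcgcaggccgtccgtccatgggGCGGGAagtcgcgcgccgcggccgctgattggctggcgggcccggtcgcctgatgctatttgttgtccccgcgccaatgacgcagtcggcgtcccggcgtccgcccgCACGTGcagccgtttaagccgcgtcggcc
Dazl, chr17:50293621-50293870, minus strand: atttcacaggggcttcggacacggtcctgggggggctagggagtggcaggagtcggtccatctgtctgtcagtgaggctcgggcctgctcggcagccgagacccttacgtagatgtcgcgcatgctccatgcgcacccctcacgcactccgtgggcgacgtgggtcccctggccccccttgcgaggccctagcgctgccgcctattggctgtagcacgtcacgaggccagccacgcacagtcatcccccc
Tdrd5, chr1:156303349-156303598, minus strand: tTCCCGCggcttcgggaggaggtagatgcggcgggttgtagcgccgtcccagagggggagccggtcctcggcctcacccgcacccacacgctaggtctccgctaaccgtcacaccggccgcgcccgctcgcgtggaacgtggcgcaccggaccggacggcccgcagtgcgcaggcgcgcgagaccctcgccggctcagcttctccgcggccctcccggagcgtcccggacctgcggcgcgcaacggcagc
Mael, chr1:166238745-166238994, minus strand: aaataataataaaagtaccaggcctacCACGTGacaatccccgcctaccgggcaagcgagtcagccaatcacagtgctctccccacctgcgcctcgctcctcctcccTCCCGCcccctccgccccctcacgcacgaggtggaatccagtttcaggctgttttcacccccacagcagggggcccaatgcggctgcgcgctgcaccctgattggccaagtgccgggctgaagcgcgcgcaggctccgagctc

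The 4 windows held 31 CpG in Ddx4, 20 in Dazl, 40 in Tdrd5 and 18 in Mael, against a median of 6 over all 32851 promoter windows of the table. All 4 lay above the median, and Tdrd5 had more CpG than 98.7% of windows. In the Ddx4 window the E2F core began 136 bases and the E-box 29 bases before the start, and the Mael window also held both. Such a pair occurred in 1.45% of all windows, the E2F core in 16.9% and the E-box in 6.02%. Of the 8 members with a window, 3 held the E2F core and 4 the E-box in at least 1 of their windows. Dazl held neither of these letters. Ddx4 and Mael thus carried the same pair of elements while having the highest and the lowest control level of the 9 genes. These letters are a description of the windows and show no binding.

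**Figure D1:**
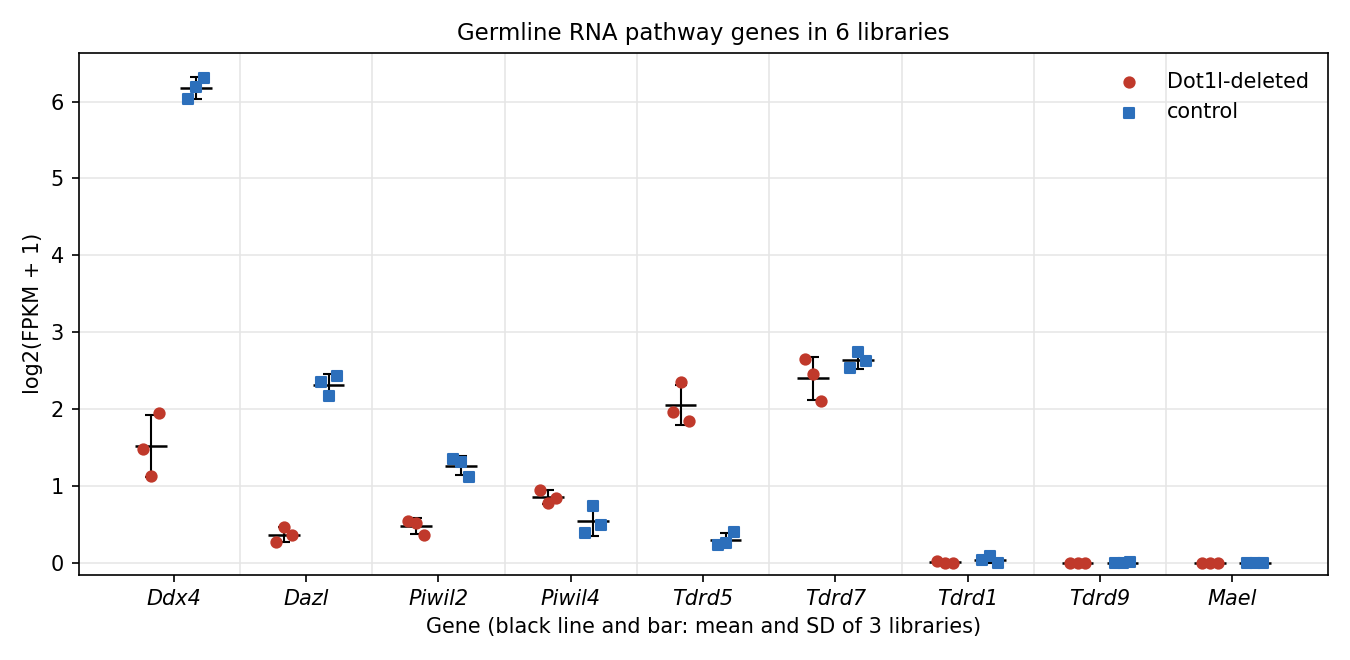
Each point is log2(FPKM + 1) of a member gene in 1 library, with Dot1l-deleted libraries as circles on the left and controls as squares on the right, and black lines and bars as mean and SD of 3 libraries. Ddx4, Dazl and Piwil2 had all 3 Dot1l-deleted values below all 3 controls, Tdrd5 and Piwil4 had them above, and Tdrd1, Tdrd9 and Mael lay at or near 0.

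Ddx4 (ENSMUSG00000021758) had 1.8, 1.2 and 2.86 FPKM in the Dot1l-deleted libraries, against 64.2, 72.0 and 78.2 FPKM in the controls. FPKM is the number of fragments scaled to gene length and to the total of mapped fragments. The groups were far apart, at means of 1.95 ± 0.843 FPKM after deletion and 71.4 ± 6.99 FPKM in controls (SD, n = 3 each), so that the mean was 36.6-fold lower after deletion. On the log2(FPKM + 1) scale the fold change was -4.65 (SE 0.199), the third lowest value of 11924 genes with a mean of at least 1 FPKM. In control cells Ddx4 exceeded 87.1% of these genes, and in Dot1l-deleted cells 10.8% of them. In a sorted bulk population, fewer cells that express a gene and less RNA per cell cannot be told apart.

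Dazl (ENSMUSG00000010592) had 0.210, 0.383 and 0.284 FPKM in the Dot1l-deleted libraries, against 4.12, 3.49 and 4.41 FPKM in the controls. It was thus much lower than Ddx4 in control cells, and every Dot1l-deleted library was below every control. Its mean was 13.7-fold lower after deletion, with a log2 fold change of -1.95 (SE 0.178). Because 1 is added to each value before the log, this scale understates the difference of a gene at this level.

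Of the PIWI genes, Piwil2 (ENSMUSG00000033644), whose product MILI takes part in piRNA amplification, had 0.465, 0.436 and 0.282 FPKM after deletion, against 1.56, 1.49 and 1.18 FPKM in controls. The groups did not overlap, and the mean was 3.57-fold lower after deletion (log2 fold change -0.79, SE 0.113). Piwil4 (ENSMUSG00000036912), whose product MIWI2 acts in the nucleus, had 0.932, 0.715 and 0.8 FPKM after deletion, against 0.307, 0.679 and 0.407 FPKM in controls. Here the order was the opposite, with the mean 1.76-fold higher after deletion, and the highest control came close to the lowest Dot1l-deleted library (log2 fold change 0.32, SE 0.117). Both PIWI genes lay below the filter on low values and were not in the fit of 11924 genes.

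Among the Tudor domain genes, Tdrd5 (ENSMUSG00000060985), needed for transposon silencing and spermatid development, ran against Ddx4. It had 2.90, 4.11 and 2.59 FPKM after deletion, against 0.172, 0.198 and 0.318 FPKM in controls. The mean was 14.0-fold higher after deletion, with a log2 fold change of 1.76 (SE 0.202) and no overlap between groups. In GENCODE M21, Tdrd5 overlaps A430050A11Rik on its own strand and 4930518J20Rik on the opposite strand, and reads of these genes were not separated here.

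Tdrd7 (ENSMUSG00000035517), which is also used outside the germline, in the lens, had 5.29, 4.48 and 3.30 FPKM after deletion, against 4.78, 5.71 and 5.17 FPKM in controls. Its groups overlapped, at means of 4.36 ± 1.0 and 5.22 ± 0.465 FPKM in Dot1l-deleted and control cells (SD, n = 3 each), with a log2 fold change of -0.23 (SE 0.168). The lowest value was in the third Dot1l-deleted library, whose tested genes were low as a whole. Without that library the log2 fold change of Tdrd7 was -0.08.

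The other members were barely detected. Tdrd1, which binds PIWIL2, was listed at 0.0153, 0 and 0 FPKM after deletion and at 0.0275, 0.0646 and 0 FPKM in controls. Tdrd9, which encodes a helicase partner of PIWIL4, was listed at 0 in 5 libraries and at 0.0132 FPKM in the third control. Mael was listed at 0 in all 6. FPKM tables give no read counts, so the depth behind these values is unknown, and a listed 0 can be a failed estimate.

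In the Dot1l-deleted libraries the order of the mean levels was Tdrd7, Tdrd5, Ddx4, Piwil4, Piwil2 and Dazl. In the controls it was Ddx4, Tdrd7, Dazl, Piwil2, Piwil4 and Tdrd5. Neighbours in the first order whose libraries overlapped were Tdrd7 with Tdrd5, Tdrd5 with Ddx4, and Piwil2 with Dazl, and in the controls only Piwil4 with Tdrd5. Ddx4 held 17.7% of the summed FPKM of the 9 genes after deletion and 86.3% in controls. The sum ran from 10.1 to 11.6 FPKM in Dot1l-deleted libraries and from 75.2 to 89.6 FPKM in controls. Without Ddx4 it ran from 7.26 to 10.1 FPKM after deletion and from 10.97 to 11.6 FPKM in controls, so the difference between the sums was mostly that of Ddx4.

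Of the 8 members above 0 in any library, 3 had all Dot1l-deleted values below all control values, and 2 had them above. Among all 20568 genes above 0 in any library, 23.2% were lower in that way and 12.2% higher. Only 4 members reached the filter of a mean of 1 FPKM, and 3 of these were among the genes called by limma at an adjusted p under 0.05, 2 lower and 1 higher. Dazl reached the filter only through the controls, and Tdrd5 only through the Dot1l-deleted libraries. Over all 11924 genes tested, 19.7% were called, 12.2% lower and 7.43% higher. Since the contrast was known when the members were chosen, nothing is read from the member counts. Over the settings that keep the pseudocount of 1, the log2 fold change ran from -4.865 to -4.46 for Ddx4, from -2.03 to -1.865 for Dazl, from -0.86 to -0.72 for Piwil2 and from 1.61 to 1.86 for Tdrd5. With pseudocounts of 0.1 and 5 the values were -5.20 and -3.46 for Ddx4, -3.40 and -0.77 for Dazl, -1.62 and -0.25 for Piwil2, and 3.33 and 0.65 for Tdrd5.

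As a check of the labels, Dot1l had 8.24, 8.17 and 5.80 FPKM in the Dot1l-deleted libraries, against 20.2, 22.6 and 19.6 FPKM in the controls. The mean was 2.81-fold lower after deletion, so Dot1l RNA remained. With 1 value per gene, cells that kept Dot1l and RNA still made from a deleted gene cannot be told apart. The third Dot1l-deleted library stood apart, with a median log2 deviation of its tested genes of -0.37 relative to the mean of all 6, while the other 5 lay at 0.05 to 0.10, and with 39.0% of its summed FPKM in 10 rows, against 6.59% to 10.8%. Over the tested genes the median log2 fold change was -0.16 with this library and -0.03 when it was left out. Median-of-ratios scaling brought it to -0.02.

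Cell type markers were read as whole lists. For comparison, 12.2% of all tested genes fell and 7.43% rose. All 15 markers of myeloid progenitors were measured above the filter; 7 rose and 2 fell, namely the progenitor genes Kit and Cd34. Markers of maturing granulocytes and monocytes moved with Ddx4 in the opposite direction. All 9 that were tested rose, with a summed level of 21198 to 25210 FPKM in Dot1l-deleted libraries and 1033 to 1246 FPKM in controls, and their part in the Ddx4 result was not tested. The 14 germ cell markers summed to only 3.36 to 4.04 FPKM after deletion and 5.51 to 6.00 FPKM in controls, with the largest part from Zbtb16, which blood cells also express. The germ cell genes Dppa3, Pou5f1, Stra8, Dmrt1 and Tnp1 were listed at 0 in all 6 libraries. Other genes of germ cells were measured in controls, among them Dazl at 3.49 to 4.41 FPKM, Tcfap2c at 1.60 to 2.09 FPKM and Sycp3 at 0.723 to 0.980 FPKM. The part of germ cell markers in the Ddx4 result was not tested. Summed levels of 2 other blood lists were lower after deletion, as Ddx4 was. Of the 7 mast cell markers tested 4 fell and 2 rose, with a list sum of 1534 to 2221 FPKM in Dot1l-deleted libraries and 2487 to 2732 FPKM in controls. Of the 10 erythroid and megakaryocyte markers 4 fell and 4 rose, with a sum of 108 to 136 FPKM after deletion and 179 to 191 FPKM in controls. The part of either list in the Ddx4 result was not tested. No lymphocyte marker reached the filter, and of the 2 fibroblast and endothelial markers tested 1 rose and 1 fell. Of the 10 markers of testis and ovary support cells, none of the 2 tested passed by limma, and their sum was 3.23 to 6.08 FPKM after deletion and 3.54 to 4.92 FPKM in controls.

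The wider germline programme was read from lists of other genes. Across 4 lists of piRNA pathway, early germ cell, meiosis and sperm genes, 122 genes had a row and only 20 reached the filter. Of these 20 genes, 3 rose, 4 fell and 13 did not pass. The 3 that rose, Dnmt3l, Spocd1 and Lin28, had control means below 1 FPKM. They reached the filter only through the Dot1l-deleted libraries. Tcfap2c, lower after deletion, missed it at a mean of 0.988 FPKM. The split of rises and falls thus depends on the filter, and nothing is read from it. The share called was 35%, against 19.7% of all tested genes, and the median log2 fold change was 0.01, against -0.16 over all tested genes. Both figures describe the 20 genes with enough RNA in these cells, and not the 122 as a whole. The lists were not limited to genes used only in germ cells, and Zbtb16, which blood cells also express, was among the 20. Of the 102 genes below the filter, 33 were listed at 0 in every library.

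**Figure D2:**
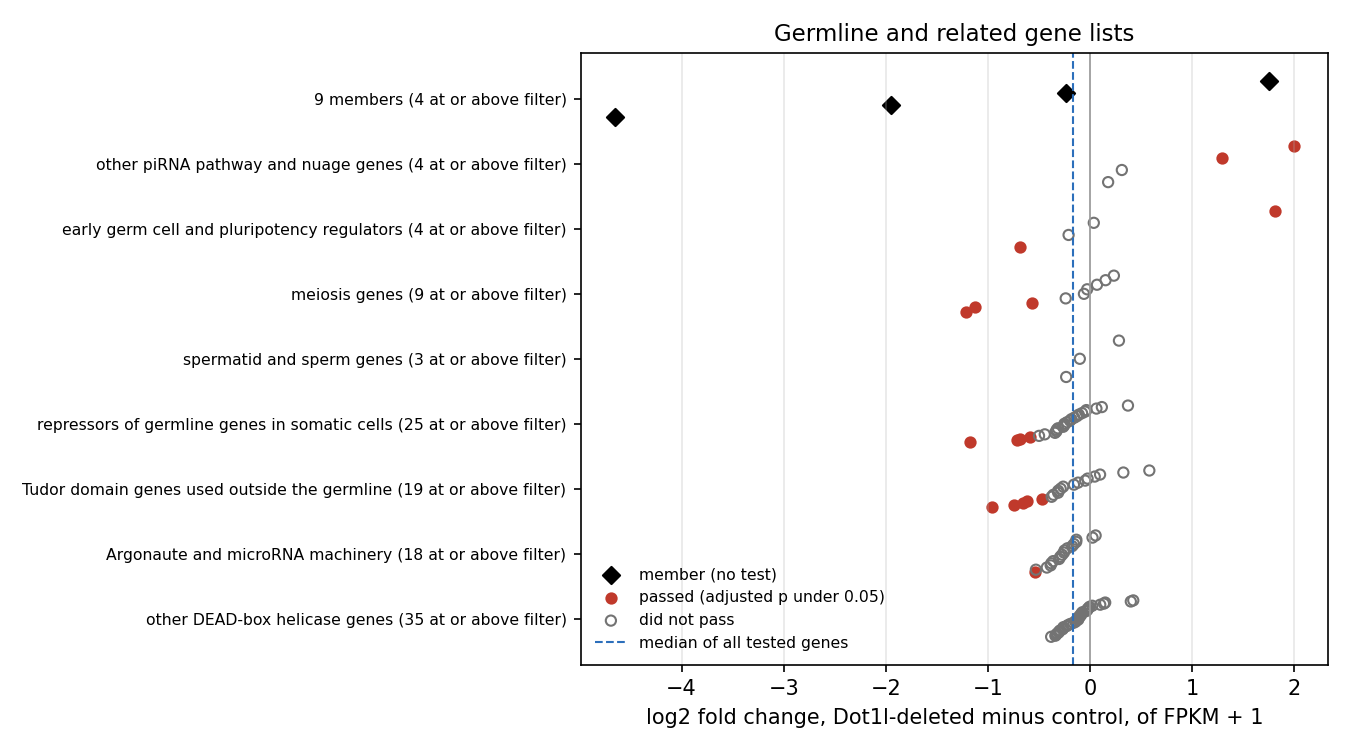
Each point is the log2 fold change (Dot1l-deleted minus control, log2(FPKM + 1)) of 1 gene at or above the filter, by list, with filled points for genes that passed at an adjusted p under 0.05, open points for those that did not, and diamonds for members. Ddx4 and Dazl lie far to the left at -4.65 and -1.95, while Tdrd5 and the called piRNA pathway genes lie to the right, above 1, and the other DEAD-box genes lie between -0.38 and 0.42.

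Among other genes of the piRNA pathway and nuage, Dnmt3l and Spocd1 rose and none of the 4 tested fell. The share called was 50%, against 19.7% of all tested genes. Both genes reached the filter only through the Dot1l-deleted libraries, with control means of 0.804 and 0.208 FPKM. With no filter both were still called, at an adjusted p of 0.0052 and 0.0215 by limma. Dnmt3l, the catalytically inactive DNA methyltransferase that acts with DNMT3A in germ cells, had 6.51, 7.05 and 5.11 FPKM after deletion, against 0.945, 0.825 and 0.643 FPKM in controls. It was 7.74-fold higher after deletion (log2 fold change 2.0, SE 0.171, adjusted p = 1.66e-05 by limma). Spocd1, which links PIWIL4 to DNA methylation of transposons, had 2.35, 2.22 and 1.41 FPKM after deletion, against 0.175, 0.274 and 0.173 FPKM in controls. It was 9.58-fold higher after deletion (log2 fold change 1.29, SE 0.212, adjusted p = 0.00157 by limma), and without the first or the second Dot1l-deleted library its mean fell below the filter. Tdrkh and Pld6, both genes of piRNA processing at mitochondria, did not pass, with log2 fold changes of 0.18 and 0.31. All Dot1l-deleted values lay above all controls for 12.2% of the 20568 genes above 0 in any library, and below for 23.2%. Of the 23 genes of this list below the filter, 4 lay above in that way and 1 below. Among them, Gtsf1l had 1.16, 1.13 and 0.833 FPKM after deletion, against 0.0519, 0.0609 and 0 FPKM in controls; this gene, like Tcfap2c, Gfra1, Stag3 and 4930486G11Rik below, was chosen after its values were seen.

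Among 30 early germ cell and pluripotency regulators, 4 were tested. Lin28 rose, Zbtb16 fell and Nanos1 and Dnd1 did not pass, a share called of 50% against 19.7% of all tested genes. Lin28 (now Lin28a), an RNA-binding protein gene of primordial germ cells that blocks let-7 maturation, had 5.92, 5.18 and 4.02 FPKM after deletion, against 0.685, 0.723 and 0.702 FPKM in controls. It was 7.17-fold higher after deletion (log2 fold change 1.81, SE 0.175, adjusted p = 4.03e-05 by limma). Lin28 reached the filter only through the Dot1l-deleted libraries, with a control mean of 0.703 FPKM. It was still called with no filter (adjusted p = 0.00664 by limma). Zbtb16, a transcriptional repressor gene of spermatogonial stem cells and of blood cells, was 1.90-fold lower after deletion (log2 fold change -0.68, SE 0.161, adjusted p = 0.0126 by limma). The call of Zbtb16 was lost without the second control library. Just below the filter, Tcfap2c (now Tfap2c), a transcription factor gene of germ cell specification, had 0.0978, 0.102 and 0.0861 FPKM after deletion, against 2.09, 1.60 and 1.94 FPKM in controls. Gfra1, the GDNF co-receptor gene of spermatogonial stem cells, had 0.0166, 0.0202 and 0.0426 FPKM after deletion, against 0.350, 0.436 and 0.577 FPKM in controls. Both were untested, and in both every Dot1l-deleted library was below every control.

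**Figure D3:**
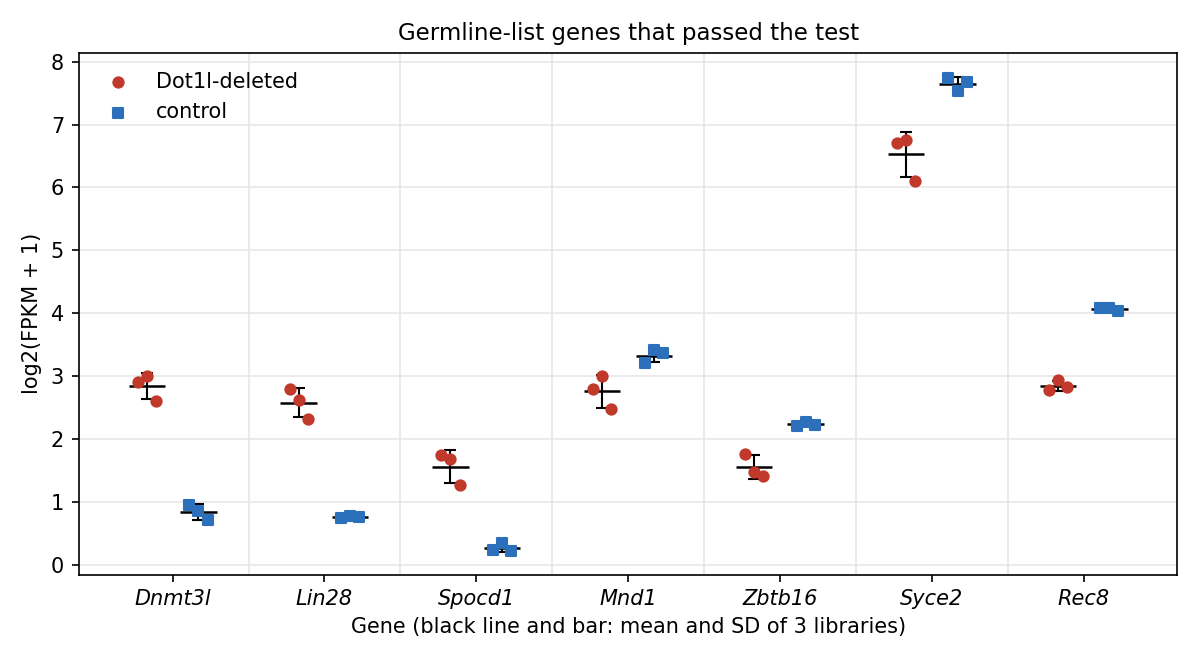
Each point is log2(FPKM + 1) in 1 library for the 7 germline-list genes that passed the test, with Dot1l-deleted libraries on the left of each pair and controls on the right, and black lines and bars as mean and SD of 3 libraries. Dnmt3l, Lin28 and Spocd1 were higher after deletion, and Mnd1, Zbtb16, Syce2 and Rec8 lower, with no overlap between groups.

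Of 38 meiosis genes, 9 were tested, of which 3 fell and 6 did not pass. The share called was 33.3%, against 19.7% of all tested genes. The direction depended on the setting. Median-of-ratios scaling gave 1 higher and 3 lower, no filter 1 higher and 2 lower, and a filter of 0.1 FPKM 2 higher and 2 lower. Rec8, the meiotic cohesin subunit gene, had 5.91, 6.65 and 6.09 FPKM after deletion, against 15.9, 15.9 and 15.4 FPKM in controls (log2 fold change -1.22, SE 0.124, adjusted p = 6.12e-05 by limma). Syce2, a central element gene of the synaptonemal complex, was the most abundant, at 103, 107 and 68.1 FPKM after deletion, against 213, 184 and 204 FPKM in controls (log2 fold change -1.12, SE 0.203, adjusted p = 0.00286 by limma). Its call was lost with no filter, at an adjusted p of 0.0537 by limma. It overlaps Gcdh on the opposite strand, and no source used here says if counting was by strand. Gcdh itself did not pass, at 11.7 to 18.0 FPKM after deletion and 16.5 to 17.7 FPKM in controls. Mnd1, a meiotic recombination gene, fell 1.55-fold (log2 fold change -0.57, SE 0.160, adjusted p = 0.0299 by limma), and lost the call without the second or the third control library, with no filter and with a filter of 0.1 FPKM.

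Other meiosis genes had smaller differences, or levels below the filter. Prdm9, which sets recombination sites, had 1.07, 2.23 and 1.27 FPKM after deletion, against 1.41, 1.32 and 1.35 FPKM in controls, with overlapping groups. Sycp3, the synaptonemal axis gene, had 0.981, 1.29 and 1.29 FPKM after deletion, against 0.723, 0.980 and 0.871 FPKM in controls, and did not pass. Of the 29 meiosis genes below the filter, 6 had all Dot1l-deleted values above all controls and 2 had them below. Among all 20568 genes above 0 in any library, 12.2% lay above in that way and 23.2% below. Stag3, another meiotic cohesin gene, had 1.25, 1.68 and 1.14 FPKM after deletion, against 0.535, 0.333 and 0.515 FPKM in controls, an order opposite to that of Rec8. The row 4930486G11Rik (now Mei4), a gene of meiotic break formation, had 1.54, 1.64 and 0.908 FPKM after deletion, against 0.413, 0.421 and 0.292 FPKM in controls.

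Of 27 spermatid and sperm genes, 3 were tested and none passed by limma, with 0 at an unadjusted p under 0.05. Tssk6, a kinase gene of spermatids, had 2.70, 2.51 and 1.60 FPKM after deletion, against 1.62, 1.70 and 1.63 FPKM in controls. With median-of-ratios scaling, with quantile normalization or without Dot1l-deleted library 3, 1 gene of the list was called, as higher. Of the 24 genes below the filter, 10 were listed at 0 in every library.

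Genes listed here as repressors of germline promoters in body cells were all expressed. Of these 25 genes, 4 fell, none rose and 21 did not pass, a share called of 16.0% against 19.7% of all tested genes. Dnmt3b, a de novo DNA methyltransferase gene, had 12.7, 12.2 and 8.87 FPKM after deletion, against 25.5, 26.6 and 26.9 FPKM in controls (log2 fold change -1.17, SE 0.158, adjusted p = 0.000418 by limma). The others that fell were Zbtb16, the heterochromatin protein gene Cbx3 and the Polycomb partner gene Yaf2, the last at a log2 fold change of -0.58. Zbtb16 was also on the early germ cell list, so its fall was counted in both lists. Yaf2 lost the call without any 1 of the 3 controls and with no filter, and Cbx3 in 8 of 15 alternatives. After median-of-ratios scaling the list had 2 higher and 7 lower genes, and leaving out Dot1l-deleted library 3 gave 2 higher and 6 lower. Cbx3 was not called in either setting.

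Other helicase and Tudor domain genes gave the family background of Ddx4 and the Tdrd genes. None of 35 other DEAD-box helicase genes was called by limma with the values as deposited, and 2 had an unadjusted p under 0.05. Their log2 fold changes ran from -0.38 to 0.42, with a median of -0.11. Median-of-ratios scaling gave 4 higher and 6 lower among these helicases, and leaving out Dot1l-deleted library 3 gave 5 higher and 2 lower. No other DEAD-box gene tested therefore came near the -4.65 of Ddx4. Of 19 Tudor domain genes used outside the germline, 5 fell and none rose with the values as deposited, a share called of 26.3%. Over all tested genes 19.7% were called, 12.2% lower and 7.43% higher. Median-of-ratios scaling gave 3 higher and 8 lower among these 19 genes. The largest fall was that of Tdrd3, a scaffold gene of a topoisomerase, at -0.96 on the log2 scale (SE 0.145, adjusted p = 0.000872 by limma). Phf20l1, Ccdc101 (now Sgf29), Trp53bp1 and Arid4b fell by 0.66, 0.74, 0.62 and 0.47 on the log2 scale. Arid4b lost the call in 7 of 15 alternatives, among them the removal of any 1 control. Trp53bp1 lost it with no filter and without control 2, Ccdc101 with no filter, and Phf20l1 without control 3. Of 18 Argonaute and microRNA machinery genes, Eif2c1 (now Ago1) alone fell, by 0.53 on the log2 scale (adjusted p = 0.0302 by limma), and it lost the call without any 1 of the 3 controls without the second Dot1l-deleted one, or with no filter. Below the filter, Eif2c4 (now Ago4), chosen after its values were seen, had 1.38, 1.59 and 0.775 FPKM after deletion, against 0.275, 0.374 and 0.349 FPKM in controls, a level near those of the PIWI genes.

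The genes beside Ddx4 on chromosome 13 were then read in order, as placed by GENCODE M21. Of the 6 nearest protein-coding genes, 3 on each side, 4 were tested, 3 fell and none rose, where 12.2% of all tested genes fell and 7.43% rose. Only 1 of them was called when control 2 or Dot1l-deleted library 2 was left out. Il31ra, the interleukin 31 receptor gene, lies next to Ddx4 on the downstream side and on the same strand. It had 0.172, 0.226 and 0.465 FPKM after deletion, against 4.50, 6.27 and 6.09 FPKM in controls, so it reached the filter only through the controls. It fell by 2.36 on the log2 scale (SE 0.188, adjusted p = 1.06e-05 by limma), and in both genes the third Dot1l-deleted library had the highest of the 3 values after deletion. Il6st, the gp130 gene of the IL6 receptor family and the next on that side, had 2.44, 1.59 and 1.33 FPKM after deletion, against 3.15, 3.84 and 3.44 FPKM in controls (log2 fold change -0.70, SE 0.186, adjusted p = 0.0231 by limma). On the upstream side Slc38a9, a lysosomal amino acid sensor gene on the opposite strand, fell by 0.50 on the log2 scale (SE 0.143, adjusted p = 0.0329 by limma). Skiv2l2 (now Mtrex), an RNA exosome helicase gene further upstream, did not pass, at 51.2, 50.7 and 37.6 FPKM after deletion and 51.9, 52.7 and 52.3 FPKM in controls. Ppap2a (now Plpp1) and Ankrd55 were below the filter, and their groups overlapped.

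**Figure D4:**
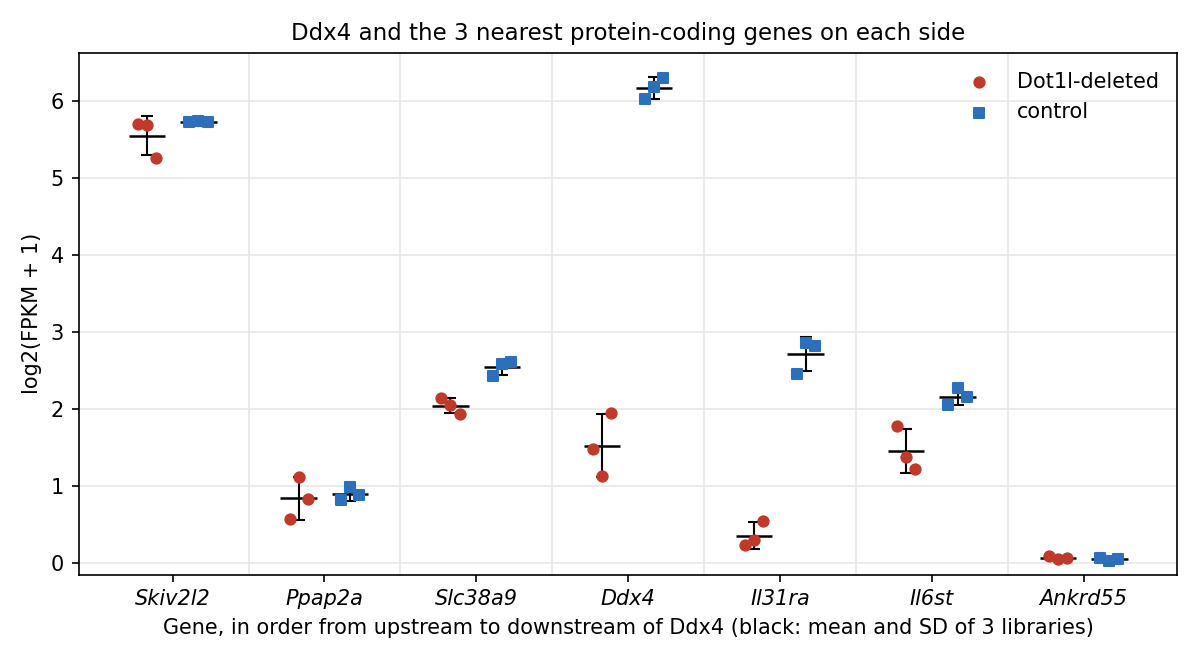
Each point is log2(FPKM + 1) in 1 library for Ddx4 and its 3 nearest protein-coding genes on each side, in gene order from upstream to downstream, with Dot1l-deleted libraries on the left of each pair and controls on the right, and black lines and bars as mean and SD of 3 libraries. Ddx4 and Il31ra show wide gaps between groups, Il6st and Slc38a9 smaller ones, and the outer genes overlap or nearly so.

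The call of Il31ra held in all 15 alternatives run, while the smaller falls beside it were less secure. Il6st lost the call with no filter, and when control 2 or Dot1l-deleted library 2 was left out (adjusted p of 0.124, 0.0793 and 0.0539). Slc38a9 lost it without any 1 of the 3 controls (adjusted p of 0.0905, 0.163 and 0.182) and when Dot1l-deleted library 2 was left out (adjusted p = 0.0760). Whether transcripts run from Ddx4 into Il31ra was not tested, since the tables give 1 value per gene.

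The nearest gene on each side of the other 8 members was read in the same way, a step added after the Ddx4 neighbours had been seen. Of these 16 genes 7 were tested, 3 fell, 1 rose and 3 did not pass, where 12.2% of all tested genes fell and 7.43% rose. Both genes beside Dazl fell, with Rftn1, a lipid raft protein gene, at -1.0 on the log2 scale (SE 0.167, adjusted p = 0.00174 by limma) and Plcl2, a phospholipase-like gene, at -0.73 (SE 0.145, adjusted p = 0.00512 by limma). Rftn1 had 15.2, 13.9 and 10.02 FPKM after deletion, against 25.8, 28.2 and 26.2 FPKM in controls. Both were smaller in size than the log2 fold change of Dazl itself, -1.95, but with a pseudocount of 5 Rftn1 was at -0.83 and Dazl at -0.77. Beside Tdrd1, A630007B06Rik (now Ccdc186) fell by 1.45 on the log2 scale, although Tdrd1 was at or near 0. Beside Piwil4, Fut4, a fucosyltransferase gene, rose by 0.74 on the log2 scale (SE 0.217, adjusted p = 0.0372 by limma), a call lost with no filter, with a filter of 0.1 FPKM, without control 1 and without Dot1l-deleted library 1 or 2. Its other neighbour Amotl1 was untested, at 1.78, 1.41 and 1.26 FPKM after deletion and 0.254, 0.298 and 0.277 FPKM in controls. Neither neighbour of Piwil2, Slc39a14 or Polr3d, passed, and those of Tdrd5 were below the filter.

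Genes with a profile like that of Ddx4 were found by the Pearson correlation of log2(FPKM + 1) over the 6 libraries, a measure set mostly by the difference between the groups. Genes with names of the Gm, Rik, AC, AL or RP kind were passed over. The 5 closest of the remaining genes, out of 11924 ranked, were Wt1, Tll1, Fam84a, Spata18 and Kynu. Their r was 0.999 for Wt1 and 0.997 to 0.998 for the others. Wt1, a zinc finger transcription factor gene, had 0.904, 0.299 and 1.28 FPKM after deletion, against 47.9, 45.4 and 54.2 FPKM in controls. As with Ddx4, the second Dot1l-deleted library was the lowest and the third the highest, and the order held for all 5 genes. The genes were picked by r over these same libraries, which favours a shared order, so nothing is read from it. Kynu, an enzyme gene of tryptophan breakdown, had 0.125, 0.0345 and 0.384 FPKM after deletion, against 9.99, 8.70 and 8.56 FPKM in controls. In all, 393 genes reached an r of 0.95 with Ddx4, itself included. Of the other 8 members, only Dazl, Tdrd5 and Tdrd7 reached the filter and could be ranked. None of these was among the 5 closest, and members below the filter were not compared.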

How the data were processed

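Per the labels, polyadenylated RNA of 6 sorted samples was sequenced with a stranded kit, and the tools named, per the submitters' processing notes, were Cuffdiff, SAMtools, GSNAP and CASAVA 1.8.2, on build mm9, with no role or order given. The authors deposited 1 FPKM value per gene and library; these are not counts, and depth is unknown. The 378 genes with the placeholder 999999999 in any library were left out. Genes with a mean of at least 1 FPKM over the 6 libraries (11924) were fitted on log2(FPKM + 1) with limma 3.58.1 in R 4.3.3 (lmFit, eBayes with trend), two-sided, with Benjamini-Hochberg adjustment over all of them and a threshold of 0.05. Members below that filter take their value and SE from the same fit without it. Fold changes are Dot1l-deleted over or minus control, and plain folds divide the group means of FPKM. Alternatives were 2 other pseudocounts, 2 filters, 2 scalings, no trend, a replicate block and each library left out.

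The members and lists were chosen with earlier results of these data known. Lists were matched by deposited symbol or by the identifier's current name, and rows whose identifier now names another gene are counted but not named. Named were the members, Dot1l, the Ddx4 neighbours, called list genes (at most 5 a list), germline-restricted list genes above the filter and the 5 profiles closest to Ddx4. For the profiles, names of the Gm, Rik, AC, AL or RP kind were passed over. Sequences are RefSeq promoter windows of GRCm38.p6, matched by symbol; Piwil2 had none. Since the files use mm9, no other coordinates are given.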

Additional observations from a re-analysis of the deposited data

How the results depend on the processing

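The direction of Ddx4, Dazl, Tdrd5 and Piwil2 held in all settings run, but their size depended on the pseudocount. With 0.1 and 5, Dazl gave -3.40 and -0.77, Tdrd5 3.33 and 0.65, Piwil2 -1.62 and -0.25 and Piwil4 0.75 and 0.09. Ddx4 gave -5.20 with a pseudocount of 0.1 and -3.46 with 5, and -4.865 to -4.46 with each library left out in turn. All genes called numbered 2345 with the values as deposited, 5465 with median-of-ratios scaling, 5608 with quantile normalization, 4647 with both that scaling and the third Dot1l-deleted library left out, and 1819 to 4558 with each library left out. The replicate block gave 2953 called genes, 3 called members and 2 Argonaute genes. Deviations of same-numbered libraries from their group means had correlations of -0.030, -0.038 and 0.013. For libraries of different number they ran from -0.078 to 0.110. Whether the numbers mark pairs is not given, and these small values cannot decide it.

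List counts moved mainly with scaling and with the third Dot1l-deleted library, and the cause was not tested. With median-of-ratios scaling 1 sperm gene, 9 repressor genes, 10 DEAD-box genes, 11 Tudor domain genes and 7 Argonaute genes were called. With quantile normalization these counts were 1, 10, 12, 10 and 7, and with scaling and Dot1l-deleted library 3 left out 1, 9, 7, 9 and 5. With no filter 5 early germ cell genes, 2 repressor genes, 2 Tudor domain genes and 0 Argonaute genes were called, and with a filter of 0.1 FPKM 4 early germ cell genes and 2 Argonaute genes. With each library left out, called genes ran from 1 to 3 in the piRNA and early germ cell lists, 2 to 3 among meiosis genes, 0 to 1 among sperm genes, 2 to 8 among repressors, 0 to 7 among DEAD-box genes, 3 to 7 among Tudor domain genes, 0 to 5 among Argonaute genes, 3 to 4 among members and 1 to 3 among the Ddx4 neighbours. For 24 named list genes and neighbours, 312 of 358 alternative values kept direction and call, 46 lost the call and none reversed. Values under 1 FPKM rest on an unknown number of reads.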
